A study of Oryza sativa Indica Group with 12 samples.

Results

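The loops described here are the intrachromosomal contacts bound by RNA polymerase II (RNAPII) in leaves of 2 indica rice cultivars. The first is MH63 (Minghui 63) and the other is ZS97 (Zhenshan 97), and they are the parents of a widely grown hybrid. They were kept where the paired-end tag (PET) count, the number of sequenced ligation products that join the ends of a loop, was at least 6. This left 9618 of the 17160 MH63 loops and all 13012 ZS97 loops, since the MH63 list began at 4 PETs and the ZS97 list at 6. The study's library summary names a lower PET limit for the ZS97 list than the one at which it begins, and the reason is not given in the sources used here. The 22630 loops were part of the 64726 loops of the whole series, which covers 2 varieties and 3 targets with 2 replicates each. The labels of both groups give no transgene and no treatment. Young leaves of seedlings aged 2 weeks, grown with 14 h of light at 32 °C and 10 h of darkness at 28 °C, were fixed and taken as whole tissue. A loop is therefore a contact summed over all leaf cells, and a contact in more cells cannot be told apart from a stronger contact in fewer cells. The 2 replicates of a variety had been joined into 1 list before deposit. No spread between replicates was available, no test between the varieties was made, and the intervals given below cover counting error only. They treat loops and anchors as independent, although many loops share an anchor, and they do not measure a spread between varieties.

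ChIA-PET fixes chromatin, collects the fragments that carry a chosen protein, and ligates fragment ends that lay close together. RNAPII transcribes the protein-coding genes and occupies the promoters and bodies of genes in use, so that RNAPII loops mark contacts of transcribed chromatin. H3K4me3, a histone mark of active promoters, and H3K9me2, a mark of silent and transposon-rich chromatin in plants, were profiled in the same leaves. Each end of a loop is an anchor, a partner is an anchor linked to it by 1 loop or more, and an anchor with at least 10 partners is called a hub here. Each variety was mapped to its own genome, and positions were therefore compared only as a share of a chromosome's length.

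MH63 had fewer RNAPII loops than ZS97 on each of the 12 chromosomes, and the ratio of MH63 to ZS97 loops was 0.739 over the genome. The ratio ran from 0.636 on chromosome 10, with 309 loops in MH63 and 486 in ZS97, to 0.938 on chromosome 5, with 1006 loops in MH63 and 1073 in ZS97. Per Mb of chromosome the MH63 list held 26.8 loops and the ZS97 list 37.5. Chromosomes 3, 1 and 2 had the most loops, in this order, in both varieties. Chromosome 3 was the richest, with 2131 loops in MH63 and 2773 in ZS97, or 57.8 per Mb in MH63 and 82.2 per Mb in ZS97. Chromosome 12 was the poorest, with 125 loops in MH63 and 147 in ZS97, or 5.0 per Mb in MH63 and 6.20 per Mb in ZS97. Chromosome 11 stood next to it, with 171 loops in MH63 and 223 in ZS97. Chromosomes 1, 2 and 3 together held more loops than the other 9 in both lists. Across the 12 chromosomes the loops per Mb of MH63 and of ZS97 correlated with Pearson's r = 0.99, which is a description of 2 lists that share the length and gene content of the chromosomes.

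**Figure D1:**
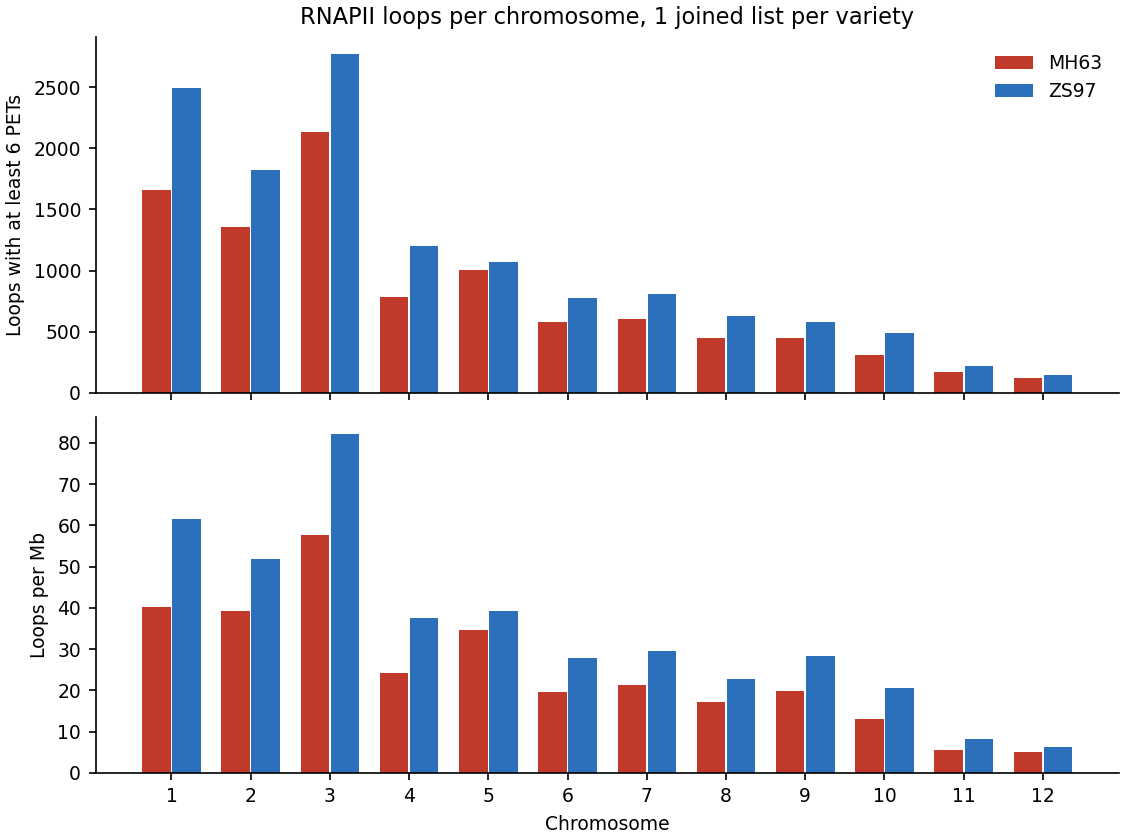
Bars give the number of RNAPII loops with at least 6 PETs (upper panel) and the loops per Mb (lower panel) on each chromosome, red for MH63 and blue for ZS97. The MH63 bar is below the ZS97 bar on all 12 chromosomes, with the ratio of MH63 to ZS97 closest to 1 on chromosome 5 (1006 in MH63, 1073 in ZS97), and chromosome 3 is highest in both.

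The count of loops depends on how deeply a library was read. The study's library summary lists more inter-ligation PETs for the joined ZS97 RNAPII library than for the MH63 one, so that depth and variety cannot be told apart in the number of loops. The PETs inside the kept loops summed to 158673 in MH63 and 197758 in ZS97. The difference in number was smaller among strong loops. MH63 had 4791 loops with at least 10 PETs against 6079 in ZS97, 1778 with at least 20 against 2101, 449 with at least 50 against 474, and 138 with at least 100 against 146. With every deposited loop counted, from 4 PETs in MH63 and from 6 in ZS97, the ratio turned to 1.32.

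Within its shorter list, MH63 had the larger share of strong loops. The share of loops with at least 20 PETs was 18.5% in MH63 (95% Wilson interval 17.7 to 19.3%) and 16.1% in ZS97 (15.5 to 16.8%), a difference of 2.34 percentage points (interval 1.34 to 3.34). It was higher in MH63 on 11 of the 12 chromosomes. The exception was chromosome 11, with 15.2% of 171 loops in MH63 and 19.7% of 223 in ZS97. The median PET count was 9 in both lists and the 90th percentile was 31 in MH63 and 27 in ZS97. The strongest loop had 817 PETs in MH63 and 1052 in ZS97. The share depends on list length: among the 9618 loops with the highest PET counts of each list it was 18.5% in MH63 and 21.8% in ZS97.

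The typical RNAPII loop was of similar length in the 2 varieties, and the lists differed at the long end. The span, measured between anchor midpoints, had a median of 39.4 kb in MH63 (95% interval 38.1 to 41.4) and 36.4 kb in ZS97 (35.1 to 37.7). The ratio of the medians was 1.08 (1.03 to 1.15), and the median was longer in MH63 on 8 chromosomes and longer in ZS97 on 4. The quartiles were 16.5 and 171.5 kb in MH63 and 15.6 and 242.4 kb in ZS97. Loops over 1 Mb made up 14.1% of the MH63 list (13.4 to 14.8%) and 18.5% of the ZS97 list (17.8 to 19.1%), a difference of -4.36 percentage points (-5.32 to -3.40). The share was lower in MH63 on 11 chromosomes. On chromosome 11 it was 9.94% in MH63, or 17 loops, and 9.42% in ZS97, or 21 loops. The widest gap was on chromosome 8, where 24 loops (5.35%) in MH63 and 77 loops (12.3%) in ZS97 spanned more than 1 Mb.

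Both lists had a first mode of spans near 10 to 30 kb and a lower mode between 18 and 32 Mb. Between them the share of MH63 loops was 1.92% at 1 to 1.78 Mb, 2.54% at 3.16 to 5.62 Mb and 1.59% at 10 to 17.8 Mb. In ZS97 it was 2.03, 3.03 and 2.94% in the same classes. MH63 had a larger share than ZS97 in the middle classes and a smaller one at both ends. Loops of up to 20 kb were 30.7% of the MH63 list and 32.6% of the ZS97 list. Loops of 20 to 100 kb were 37.8% in MH63 and 35.2% in ZS97, and loops of 100 kb to 1 Mb were 17.5% in MH63 and 13.7% in ZS97. Loops of 1 to 10 Mb were 8.81% in MH63 and 10.8% in ZS97, and loops over 10 Mb were 5.28% in MH63 and 7.61% in ZS97. In each of these 5 classes the interval of the difference, for counting error of loops taken as independent, left out 0. Yet 791 of the 1355 MH63 loops over 1 Mb touched an anchor with at least 30 partners, of which there were 40. In ZS97 it was 1439 of 2401 loops and 66 such anchors. Leaving out 0 is therefore no test of a difference between the varieties. The longest loop of each list ran along chromosome 1. It joined chr1:2978819-2989051 with chr1:39701119-39712672 in MH63 coordinates, 36.7 Mb apart, with 10 PETs and a false discovery rate (FDR) of 0.028. In ZS97 it joined chr1:3592325-3601826 with chr1:39479657-39484642, 35.9 Mb apart, with 6 PETs and an FDR of 0.013.

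**Figure D2:**
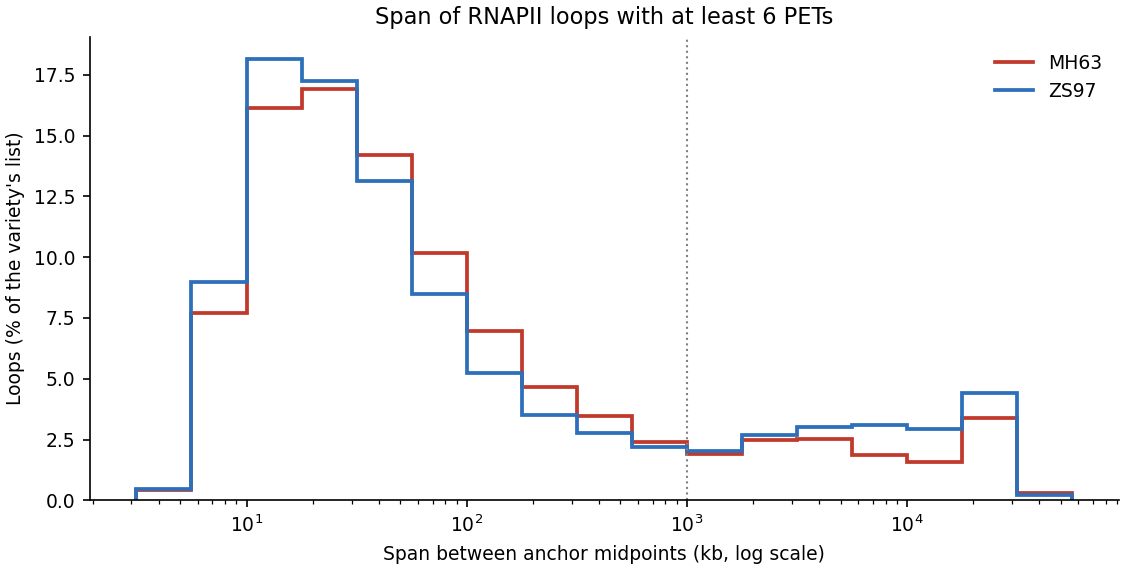
Each line gives the percentage of a variety's loops in classes of span between anchor midpoints (kb, log scale), red for MH63 and blue for ZS97, with 1 Mb as the dotted line. The 274 MH63 and 177 ZS97 loops with the same interval at both ends have a span of 0 and are not drawn. The MH63 line is above ZS97 between about 30 kb and 1 Mb and below it from 1 to about 30 Mb.

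Strong loops were short in both varieties. The median span fell with the PET limit, to 27.6 kb in MH63 and 25.9 kb in ZS97 at 10 PETs, 19.8 kb in MH63 and 19.7 kb in ZS97 at 20, and 16.1 kb in MH63 and 15.7 kb in ZS97 at 100. Loops with exactly 6 PETs had a median span of 77.2 kb in MH63 and 70.2 kb in ZS97. The median PET count was 12 in MH63 and 11 in ZS97 for loops of up to 20 kb, and 8 in both for loops over 10 Mb. Loops of up to 20 kb carried 43.4% of the PETs in both lists. Loops over 10 Mb carried 3.22% of the PETs in MH63 and 5.04% in ZS97, and the strongest of them had 75 PETs in MH63 and 114 in ZS97.

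Taking the same number of the strongest loops from each list changed the comparison of spans. Among the 500 strongest loops of each list the median span was 16.5 kb in MH63 and 16.3 kb in ZS97. Among the 5000 strongest it was 26.6 kb in MH63 and 23.4 kb in ZS97, and among the 9618 strongest 39.4 kb in MH63 and 28.4 kb in ZS97. Loops over 1 Mb were 3.45% of the 2000 strongest in MH63 and 5.55% in ZS97, and 8.40% of the 5000 strongest in MH63 and 10.4% in ZS97. At 9618 loops they were 14.1% in MH63 and 13.9% in ZS97, a difference of 0.23 percentage points (-0.75 to 1.21), so that the lower share in MH63 was no longer seen. That number splits the ZS97 loops with 7 PETs by their FDR. Smaller numbers can split a PET class too, as 2000 does for the ZS97 loops with 20 PETs. With all ZS97 loops of at least 7 PETs kept, a limit chosen after the data were seen, the shares were 14.1% in MH63 and 17.0% in ZS97. The median spans were then 39.4 kb in MH63 and 32.5 kb in ZS97.

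**Figure D3:**
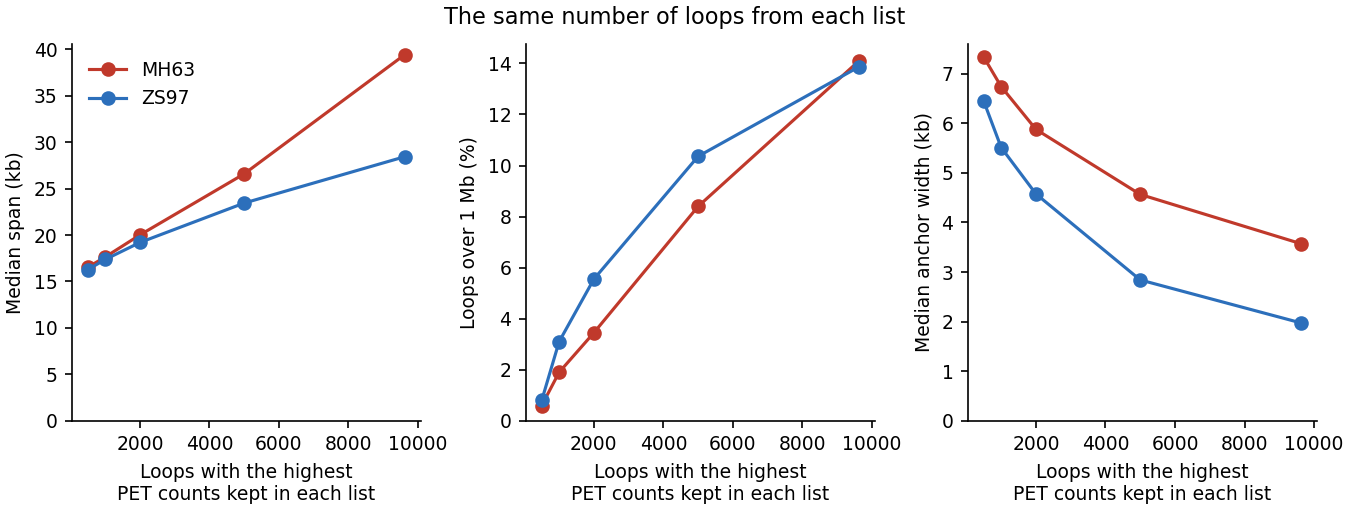
The panels give the median span (kb), the share of loops over 1 Mb (%) and the median anchor width (kb) when the same number of loops with the highest PET counts, 500 to 9618, was taken from each list, red for MH63 and blue for ZS97. Spans part as more loops enter (39.4 kb in MH63 and 28.4 kb in ZS97 at 9618), and MH63 anchors are wider at every number. The shares over 1 Mb meet at 9618, a number that splits the ZS97 loops with 7 PETs by their FDR. With all ZS97 loops of at least 7 PETs, a limit chosen after the data were seen, they are 14.1% in MH63 and 17.0% in ZS97. The median spans are then 39.4 kb in MH63 and 32.5 kb in ZS97.

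The anchors of MH63 were about 2.0 times as wide as those of ZS97. Intervals that overlapped were joined, which gave 5345 anchors in MH63 and 6901 in ZS97. Their median width was 3.57 kb in MH63 (3.44 to 3.73) and 1.78 kb in ZS97 (1.72 to 1.87), with a ratio of 2.00 (1.89 to 2.12). The median was wider in MH63 on all 12 chromosomes, by 1.70 times on chromosome 5 to 2.34 times on chromosome 11. Among strong loops the widths lay closer. With the 500 strongest loops of each list, a number chosen after the data were seen, the median was 7.33 kb in MH63 and 6.44 kb in ZS97, a ratio of 1.14. Anchors of up to 1 kb were 13.2% of the MH63 anchors and 32.7% of the ZS97 anchors, while anchors of 5 to 10 kb were 29.6% in MH63 and 16.8% in ZS97. Although fewer, the MH63 anchors covered 23.6 Mb against 20.7 Mb in ZS97. The anchors are the authors' ChIP-seq peaks extended by 10%, so their width was set by the peak lists, and the depth of those peak lists was not analysed here.

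The width was tied to the number of partners in both varieties. Anchors with 1 partner had a median width of 1.92 kb in MH63 and 0.913 kb in ZS97. Anchors with 3 or 4 partners had 5.50 kb in MH63 and 3.17 kb in ZS97, and anchors with 10 to 19 partners 8.81 kb in MH63 and 7.91 kb in ZS97. At 20 or more partners the order turned, with 9.73 kb in MH63 (8.97 to 11.1, 93 anchors) and 10.7 kb in ZS97 (10.1 to 11.7, 147 anchors), and the intervals overlapped. As a ratio, the difference in width was thus largest at 1 partner (2.10), while in kb it was largest at 3 or 4 partners. Wider anchors in MH63 were not seen among the largest hubs.

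**Figure D4:**
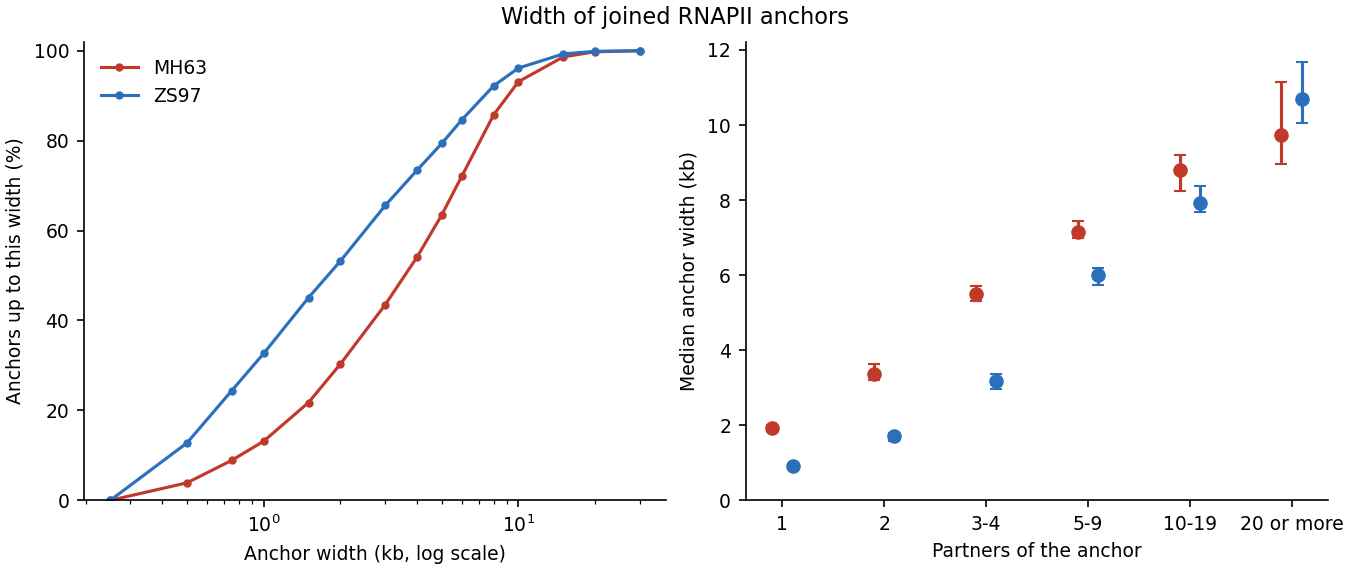
The left panel gives the cumulative percentage of joined anchors up to each width (kb, log scale), and the right panel the median width (kb) by number of partners with 95% intervals for counting error, red for MH63 and blue for ZS97. At 1 partner the medians are 1.92 kb in MH63 and 0.913 kb in ZS97, and at 20 or more partners the intervals overlap.

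The distribution of partners was close in the 2 varieties. Anchors with at least 3 partners were 34.1% in MH63 (32.9 to 35.4%) and 32.4% in ZS97 (31.3 to 33.5%), a difference of 1.70 percentage points (0.014 to 3.38) whose interval barely left out 0. The share was higher in MH63 on 9 chromosomes and lower on chromosomes 10, 11 and 12. Among anchors of like width the order was the other way. In the class of 2 to 5 kb, 22.4% of the MH63 anchors and 40.6% of the ZS97 anchors had at least 3 partners, and in the class of 5 to 10 kb 65.7% in MH63 and 84.0% in ZS97. The share was lower in MH63 in each of the 5 width classes.

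Hubs were 6.19% of the anchors in MH63 (331 anchors) and 6.93% in ZS97 (478 anchors), a difference of -0.73 percentage points (-1.61 to 0.16). They took part in 49.6% of the MH63 loops and 57.9% of the ZS97 loops. Of the loops over 1 Mb, 97.4% in MH63 and 96.5% in ZS97 had a hub at 1 end or both. Partners were counted over loops of any length, so the long loops themselves helped to make their ends hubs. These shares are therefore partly set by the definition, and no hubs were called from shorter loops alone. Loops that joined 2 hubs were 16.0% of the list in MH63 and 18.1% in ZS97. The count of hubs was higher in MH63 on a single chromosome, chromosome 5, with 43 in MH63 and 41 in ZS97. Chromosomes 11 and 12 had 2 and 1 hubs in MH63 and 4 and 2 in ZS97.

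The anchors with the most partners lay on chromosomes 1, 2, 3 and 5. In MH63 the first was chr3:31161619-31178574, 17.0 kb wide at 84.5% of the chromosome's length, with 81 partners, of which 65 lay more than 1 Mb away. The second was chr5:23922903-23940381 at 82.5% of chromosome 5, with 80 partners, or 16.0% of the other anchors on that chromosome. In ZS97 the first was chr5:22085786-22103865, 18.1 kb wide at 80.7% of chromosome 5, with 92 partners, or 16.4% of the other anchors there. It was followed by chr3:6679908-6692013 at 19.8% of chromosome 3, with 80 partners. In each list, the chromosome 5 anchor with the most partners thus took a like share of that chromosome's other anchors.

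The next hubs of MH63 were chr2:1301964-1318267 with 64 partners, chr1:28710450-28729283 with 58 and chr3:34735734-34743350 with 54. Those of ZS97 were chr1:27814821-27833945 with 65 partners, chr3:24993316-25004994 with 64 and chr1:4459348-4467789 with 63. On chromosome 1 the MH63 hub lay at 69.8% of the length and the first ZS97 hub at 68.5%. Whether hubs at like relative positions are the same locus was not examined, because the 2 genomes were not aligned. Between 62.5 and 82.8% of the partners of the 5 MH63 hubs, and between 62.0 and 79.4% of those of the 5 ZS97 hubs, lay more than 1 Mb away. All 5 MH63 hubs and 4 of the 5 ZS97 hubs overlapped H3K4me3 anchors. The ZS97 hub of chromosome 5 also overlapped an H3K9me2 anchor, while none of the 5 MH63 hubs did.

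MH63 loops skipped fewer anchors. A loop joined neighbouring anchors of its own list in 32.1% of MH63 cases and 23.7% of ZS97 cases, a difference of 8.36 percentage points (7.15 to 9.57). The median loop passed over 1 anchor in MH63 and 2 in ZS97. The ZS97 list also had more anchors per Mb, 14.9 in MH63 against 19.9 in ZS97, and the median gap between neighbouring anchors was 13.4 kb in MH63 and 9.21 kb in ZS97. The part of the denser anchors in the difference was not tested. With loops of up to 1 Mb, the ground under loops was 162.7 Mb in MH63, or 45.3% of the chromosomes, and 175.3 Mb in ZS97, or 50.6%. The largest group of anchors connected by such loops was on chromosome 3 in both lists, with 247 anchors in MH63 and 350 in ZS97. Of the linked triples of anchors, 30.8% were closed into a triangle in MH63 and 23.6% in ZS97.

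The 10 loops with the highest PET counts had between 339 and 817 PETs in MH63 and between 331 and 1052 in ZS97. They lay on 5 chromosomes in each list, and each spanned less than 28 kb. The first joined chr3:9063200-9072754 with chr3:9089461-9099140 in MH63, 26.3 kb apart at 24.6% of the chromosome, with 817 PETs. In ZS97 the first joined chr3:9260251-9271676 with chr3:9288727-9298475, 27.6 kb apart at 27.5% of the chromosome, with 1052 PETs. Both anchors of each were hubs, with 50 and 32 partners in MH63 and 42 and 29 in ZS97.

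The second loop was on chromosome 2 in both lists. It joined chr2:22989107-22999087 with chr2:23004246-23021015 in MH63, 18.5 kb apart at 66.5% of the chromosome, with 642 PETs. In ZS97 it joined chr2:23794433-23805921 with chr2:23810750-23827921, 19.2 kb apart at 67.8% of the chromosome, with 753 PETs. The third loop lay on different chromosomes. It was chr10:21361649-21377591 with chr10:21384710-21398237 in MH63, at 628 PETs, where no ZS97 loop of chromosome 10 had more than 227. In ZS97 it was chr1:29382370-29390724 with chr1:29401616-29412542, at 623 PETs, where no MH63 loop of chromosome 1 had more than 266. The strongest loop of a chromosome had between 101 PETs, on chromosome 12, and 817 in MH63, and between 126, on chromosome 12, and 1052 in ZS97. It was stronger in MH63 on 3 chromosomes, 5, 7 and 10, and stronger in ZS97 on the other 9.

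On chromosome 7, beyond 93% of its length, lay 3 of the 10 strongest MH63 loops, with 436, 372 and 357 PETs, while the 10 strongest ZS97 loops held none of chromosome 7. The sixth MH63 loop joined the interval chr2:14693892-14719180, 25.3 kb wide, to itself with 376 PETs, and that interval overlapped no H3K4me3 anchor. Both ends lay on H3K4me3 anchors in 6 of the 10 MH63 loops and in all 10 ZS97 loops. Loops with the same interval at both ends numbered 274 in MH63 and 177 in ZS97. These intervals were wide, with a median of 12.1 kb in MH63 and 12.2 kb in ZS97, and such loops had a median of 19 PETs in MH63 and 22 in ZS97, against 9 for loops with anchors apart in both lists. Loops with overlapping anchors were 3.95% of the MH63 list and 2.31% of the ZS97 list.

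RNAPII loops took nearly the same relative places along the chromosomes in the 2 varieties. Each chromosome was divided into 10 bins of equal length, numbered from its start. Over the 120 bins the shares of loop midpoints correlated with Pearson's r = 0.91, a description of bins that share the chromosome and its centromere. The bin with most loops was the same in both lists on 10 of the 12 chromosomes, and differed on chromosomes 1 and 9. The bin with fewest loops was the same on 8. The part of the distribution common to both lists was 86.5 to 95.9% on chromosomes 1 to 10, 69.1% on chromosome 11 and 80.1% on chromosome 12. Loops gathered towards 1 end on several chromosomes. Bin 10 of chromosome 10 held 41.7% of its loops in MH63 and 43.6% in ZS97, and bin 8 of chromosome 7 held 30.2% in MH63 and 31.8% in ZS97. Bin 3 of chromosome 3 held 25.8% in MH63 and 21.8% in ZS97.

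MH63 loops lay somewhat further out. The first and last 20% of the chromosomes held 53.2% of loop midpoints in MH63 (52.2 to 54.2%) and 49.6% in ZS97 (48.7 to 50.4%), a difference of 3.62 percentage points (2.31 to 4.94). The share was higher in MH63 on 10 chromosomes, by at most 10.1 percentage points on chromosome 8, and lower on chromosomes 2 and 10. Bin 4 showed the opposite, with 3.79% of loops in MH63 and 5.69% in ZS97. Much of bin 4 came from chromosome 3, with 123 of the 365 loops in MH63 and 367 of the 741 in ZS97. Anchors were less different than loops, with 54.1% of MH63 anchors and 53.2% of ZS97 anchors in these end stretches (difference 0.99, -0.79 to 2.77). With loops over 1 Mb left out, the shares of loops were 56.3% in MH63 and 54.7% in ZS97.

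The largest differences between bins were on the chromosomes with few loops. Bin 1 of chromosome 11 held 34 loops in MH63 and 12 in ZS97, its bin 7 34 loops in MH63 and 13 in ZS97, and its bin 8 14 loops in MH63 and 45 in ZS97. Bin 8 of chromosome 12 held 9 loops in MH63 and 27 in ZS97. On chromosome 3, bin 4 held 123 loops in MH63, or 5.77%, and 367 in ZS97, or 13.2%. The length used for chromosome 3 was 36.9 Mb in MH63 and 33.7 Mb in ZS97, the largest gap of any chromosome, so a bin does not hold the same sequence in the 2 genomes.

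**Figure D5:**
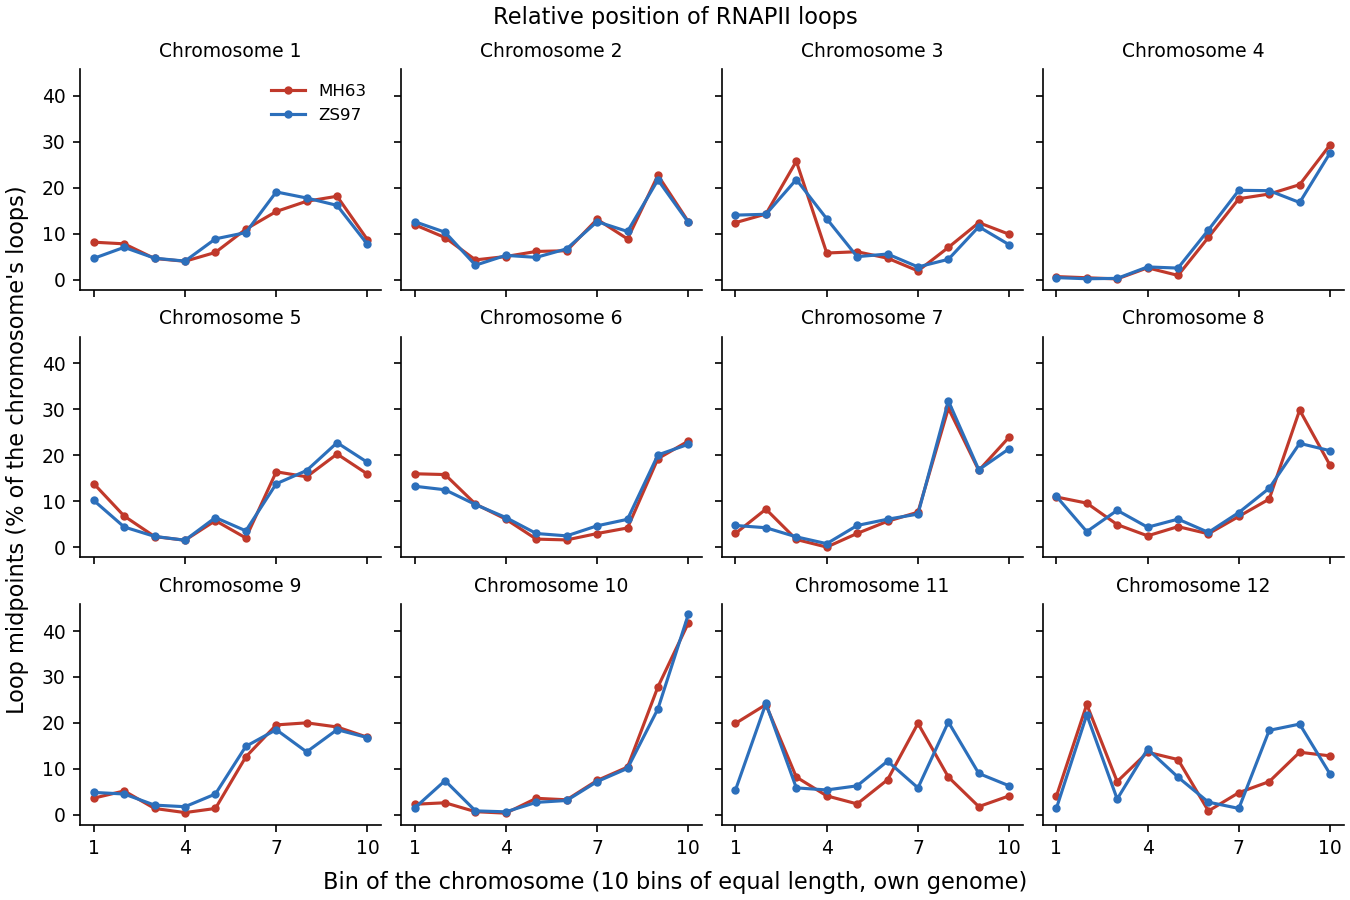
Each panel gives, for 1 chromosome, the percentage of its RNAPII loop midpoints in each of 10 bins of equal length, counted in the variety's own genome, red for MH63 and blue for ZS97. The lines run close together on chromosomes 1 to 10 (41.7% in MH63 and 43.6% in ZS97 in bin 10 of chromosome 10) and part on chromosomes 11 and 12, which have 125 to 223 loops.

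The silent chromatin of a chromosome was marked by the stretch that holds the middle 50% of its H3K9me2 anchors, which came to 22.5% of the length in MH63 and 21.5% in ZS97. It held 7.84% of RNAPII loop midpoints in MH63 and 8.78% in ZS97 (difference -0.94 percentage points, -1.67 to -0.22). Of the RNAPII anchors it held 6.81% in MH63 and 6.67% in ZS97. Loops that passed over the whole stretch, with an anchor on either side, were 4.19% in MH63 and 5.87% in ZS97. Among loops over 1 Mb they were 29.7% in MH63 and 31.8% in ZS97 (difference -2.08, -5.11 to 1.01). RNAPII anchors rarely overlapped an anchor of an H3K9me2 loop in either variety, 2.64% in MH63 and 1.91% in ZS97.

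Close to 1 in 2 RNAPII anchors overlapped an H3K4me3 anchor of the same variety, 45.9% in MH63 (44.5 to 47.2%) and 47.1% in ZS97 (46.0 to 48.3%). The difference of -1.28 percentage points had an interval of -3.06 to 0.50. An H3K4me3 anchor is an end of an H3K4me3 loop. H3K4me3 peaks outside loops were not examined, so an RNAPII anchor without overlap can still carry the mark. The H3K4me3 lists themselves differed, with 10855 anchors over 16.2 Mb in MH63 and 11960 over 20.1 Mb in ZS97. In each of the 5 width classes the share was lower in MH63, for example 40.3% in MH63 and 50.9% in ZS97 at 2 to 5 kb and 71.0% in MH63 and 83.1% in ZS97 at 5 to 10 kb. With the overlap raised to 50% of an RNAPII anchor's length, the shares were 9.75% in MH63 and 22.7% in ZS97. The part of the wider MH63 anchors and of the larger ZS97 H3K4me3 list in these values was not tested.

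Most hubs overlapped an H3K4me3 anchor, 83.7% in MH63 and 92.5% in ZS97, against 28.1% in MH63 and 34.1% in ZS97 for anchors with 1 partner. Hubs were also wider, with a median of 9.07 kb in MH63 and 8.67 kb in ZS97, against 1.92 kb in MH63 and 0.913 kb in ZS97. Of all anchors of 5 to 10 kb, 71.0% in MH63 and 83.1% in ZS97 overlapped an H3K4me3 anchor. The part of width in this contrast was not tested. Loops between different anchors had both ends on H3K4me3 anchors in 45.3% of MH63 cases and 51.7% of ZS97 cases, 1 end in 41.6% of MH63 and 37.6% of ZS97 cases, and no end in 13.1% of MH63 and 10.7% of ZS97 cases. Loops with both ends on H3K4me3 anchors were the longest, with a median span of 76.3 kb in MH63 (70.6 to 81.6) and 92.0 kb in ZS97 (84.9 to 101.9). Loops with no end on an H3K4me3 anchor had a median span of 22.6 kb in MH63 (20.9 to 23.6) and 17.3 kb in ZS97 (16.4 to 18.0). The lower share of loops over 1 Mb in MH63 was seen in the first kind, with 19.7% over 1 Mb in MH63 and 29.0% in ZS97. In the other classes the order was reversed. Among loops with 1 end on an H3K4me3 anchor, 11.9% in MH63 and 10.1% in ZS97 spanned over 1 Mb (difference 1.77 percentage points, 0.44 to 3.11). Among loops with no end on an H3K4me3 anchor, the shares were 6.30% in MH63 and 1.77% in ZS97.

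The same 2 anchors were also joined by an H3K4me3 loop for 11.3% of RNAPII loops in MH63 and 14.7% in ZS97. This share was higher with a higher PET limit, at 30.2% in MH63 and 36.2% in ZS97 from 20 PETs and 49.2% in MH63 and 59.2% in ZS97 from 50 PETs. Stronger RNAPII loops were also shorter. The deposited H3K4me3 loops were short too, with a median span of 16.3 kb in MH63 and 17.5 kb in ZS97. The part of span in this rise was not tested.

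Set beside the other targets at the same limit of 6 PETs, MH63 had fewer loops for every target. The ratio of loop counts, MH63 to ZS97, was 0.739 for RNAPII, 0.674 for H3K4me3 and 0.688 for H3K9me2, and on no chromosome did MH63 have more loops for any of them. The study's library summary lists more inter-ligation PETs in ZS97 than in MH63 for RNAPII and H3K9me2. For H3K4me3 it lists more in MH63. The part of depth in these ratios was not tested. The ratio of median anchor widths, MH63 to ZS97, was 2.00 for RNAPII, 0.891 for H3K4me3 and 1.18 for H3K9me2. The difference in the share of loops over 1 Mb, MH63 minus ZS97, was -4.36 percentage points for RNAPII, 0.018 for H3K4me3 and -0.063 for H3K9me2. The H3K4me3 shares were only 0.116% in MH63 and 0.0975% in ZS97, which leaves little room for a difference in points. The H3K9me2 shares were 8.94% in MH63 and 9.01% in ZS97. With the lists as deposited, the differences were 0.12 points for RNAPII, 1.14 for H3K4me3 and 1.46 for H3K9me2. Anchors with 3 partners or more were the larger share in MH63 for RNAPII, while they were 6.99% in MH63 and 11.8% in ZS97 for H3K4me3 and 35.9% in MH63 and 45.1% in ZS97 for H3K9me2. These are values side by side, and the difference between targets was not tested.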

How the data were processed

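ChIA-PET was done on young leaves of MH63 and ZS97. The authors filtered linkers, mapped MH63 and ZS97 tags to the RIGW genome of the same variety with an updated ChIA-PET Tool (version not given in the sources used here), removed redundant PETs, joined the replicates, and took ChIP-seq peaks extended by 10% as anchors. The deposited PET count of a loop counts the inter-ligation PETs that link its ends and was left unscaled for depth. The p-value and FDR columns were deposited by the authors with an FDR under 0.05, and were used here only to order ties.

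Loops with at least 6 PETs were kept in both lists. Starts are counted from 1. Overlapping anchors (at least 1 bp) were joined, and chromosome length was the largest anchor end in the 3 lists of a variety. Shares have 95% Wilson intervals, differences Newcombe intervals, and medians order-statistic intervals. Loci were named by rule: per variety the 10 loops with the highest PET count, the 5 anchors with the most partners, the longest loop and the strongest loop of each chromosome. The members and the measures were chosen with earlier results of these data known. The alternatives were other PET limits, equal numbers of loops, other spans, anchors and overlaps, and leaving out each chromosome. Functions were tested on simulated data. No genome of these builds was used, so no genes or sequences are given. Python 3.11.15, numpy 2.4.6, pandas 2.3.3, scipy 1.17.1, networkx 3.6.1 and matplotlib 3.10.9 were used.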

Additional observations from a re-analysis of the deposited data

How the results depend on the processing

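Each of the 8 main values was recomputed under other settings, 51 in all, and kept its direction in 45. The 500, 1000 and 2000 strongest loops are not among the 51. None changed direction when a chromosome was left out.

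The MH63 to ZS97 ratio of loop counts, 0.739, was 1.32 with the lists as deposited, and 0.721 to 0.757 with a chromosome left out. The ratio of median spans, 1.08, was 1.63 as deposited, 1.39 for the 9618 strongest loops, 1.17 for loops of up to 1 Mb, 1.21 with ZS97 from 7 PETs (a limit chosen after seeing the data), and 1.07 to 1.10 with a chromosome left out. The difference in loops over 1 Mb, -4.36 percentage points, was 0.12 as deposited, 0.23 for the 9618 strongest, -1.96 for the 5000 strongest, -2.93 with ZS97 from 7 PETs, and -4.59 to -3.88 with a chromosome left out. The difference in loops with at least 20 PETs, 2.34 points, was 2.20 to 2.67 with a chromosome left out. It was -3.36 for the 9618 strongest and -6.46 for the 5000 strongest. With equal numbers taken, both signs were fixed by the counts of such loops, 1778 in MH63 and 2101 in ZS97. Both are counted above among the settings that did not keep the direction. The difference in anchors with at least 3 partners, 1.70 points, was 9.90 as deposited, 5.41 for the 9618 and 3.63 for the 5000 strongest, 4.45 with ZS97 from 7 PETs, and 1.24 to 1.92 with a chromosome left out.

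The ratio of anchor widths, 2.00, was 1.8 at 10 PETs, 1.54 as deposited, 1.81 for the 9618, 1.61 for the 5000, 1.28 for the 2000, 1.22 for the 1000 and 1.14 for the 500 strongest (the last 3 numbers chosen after seeing the data), 1.79 with ZS97 from 7 PETs, and 1.98 to 2.04 with a chromosome left out. The difference in anchors on H3K4me3 anchors, -1.28 points, was 0.36 at 10 PETs, -7.40 as deposited, -12.9 with 50% covered, -5.17 with H3K4me3 loops from 6 PETs, and -1.62 to -0.998 with a chromosome left out. The difference in the first and last 20% of the chromosomes, 3.62 points, was 1.61 for loops of up to 1 Mb, 1.56 for the first and last 10%, and 2.45 to 4.32 with a chromosome left out. The cause of these moves was not tested.

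No paired analysis was possible because each list was made from joined replicates. The lists hold no depth, loops under 6 PETs in ZS97 were not analysed here, and chromosomes 11 and 12 have 125 to 223 loops each.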

Other observations

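The MH63 list holds 7542 loops with 4 or 5 PETs, 44.0% of its loops, for which ZS97 has no counterpart in the list used here. Their median span was 113.7 kb (95% interval 105.6 to 121.2), against 39.4 kb for the MH63 loops with at least 6 PETs, and 24.3% of them spanned more than 1 Mb, against 14.1%. Of the anchors of these weaker loops, 65.3% overlapped an anchor of a loop with at least 6 PETs. The anchors seen in weaker loops alone were narrow, with a median width of 1.36 kb (1.30 to 1.43).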
